A study of Mus musculus with 8 samples.

Results

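The complement genes C1qa, C1qb, C1qc, C3, C4b, C3ar1, Itgam, Itgb2 and Serping1 were followed in the cortex of tauopathy mice. They were taken by gene name from the table of raw counts, where each name matched a single row, giving 9 of the 54532 genes listed. All 9 had enough reads to be tested.

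RNA sequencing was made from the cortex of 8 mice, with 1 library per mouse, and asked how the Adrb1-A187V allele changes gene expression in the presence of tau pathology. The 4 PS19 mice (m677, m668, m665 and m659) carried a transgene for human tau with a dementia mutation under the mouse prion promoter. The 4 Adrb1-A187V;PS19 mice (m671, m661, m660 and m658) had this tau transgene together with 1 knock-in copy of Adrb1-A187V, labelled Adrb1+/m;PS19, in the gene for the beta-1 adrenergic receptor. All were 8 months old, on the C57BL/6 background, and housed singly in a 12-hour light and 12-hour dark cycle. Every mouse thus carried the tau transgene, and no mouse without it was analysed here, so the levels below have no reference free of tau pathology. Gene counts carry no information on the Adrb1 allele and did not check the genotype labels.

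Complement is a cascade of proteins that tag targets for removal by phagocytes. In the classical pathway the C1q molecule, built from the chains of C1qa, C1qb and C1qc, binds a target and starts the cleavage of C4 and then C3, whose fragments coat the target. Phagocytes, including microglia, take up coated material through complement receptor 3, which is formed by the products of Itgam and Itgb2. The small fragment of C3 acts on the receptor encoded by C3ar1, and the inhibitor encoded by Serping1 blocks the proteases that C1q activates. In the brain C1q is made mainly by microglia, and complement is known for its part in the removal of synapses in development and in mouse models of neurodegeneration.

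Total counts per mouse were 14653222 to 21223754, and 17195 genes were tested. The markers of the labelled tissue were present, with all 8 of the cortical excitatory neuron genes tested and a summed level of 1365 to 1727 CPM (read counts scaled to the size of the library) per mouse. The libraries also held RNA typical of neighbouring structures in amounts that differed between mice: the 6 choroid plexus genes summed to 25.2 to 370.4 CPM in PS19 mice and 28.0 to 585.1 CPM in Adrb1-A187V;PS19 mice, and the 6 striatum genes to 508.2 to 1090.2 and 532.5 to 1229.7 CPM. Blood leukocyte genes were near 0, at a summed 0.960 to 3.06 CPM.

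No difference between the genotypes was detected for any of the 9 complement genes. By edgeR's quasi-likelihood test, 0 of 9 had an unadjusted p under 0.05, against 2.80% of all genes tested (481 of 17195), and 0 of 9 had an adjusted p under 0.05, against 0% of all genes tested. The CPM of the genotypes overlapped for each of the 9 genes, whereas 2.02% of all genes tested did not overlap. The log2 fold changes, Adrb1-A187V;PS19 minus PS19, ran from -0.13 for Itgam to 0.30 for C3, with a positive sign in 7 genes and a negative sign in 2. The level varied from mouse to mouse within each genotype by 1.48-fold to 4.48-fold between the lowest and the highest of 4 mice. In cortex as a whole, fewer cells of a type and less RNA per cell cannot be told apart.

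**Figure D1:**
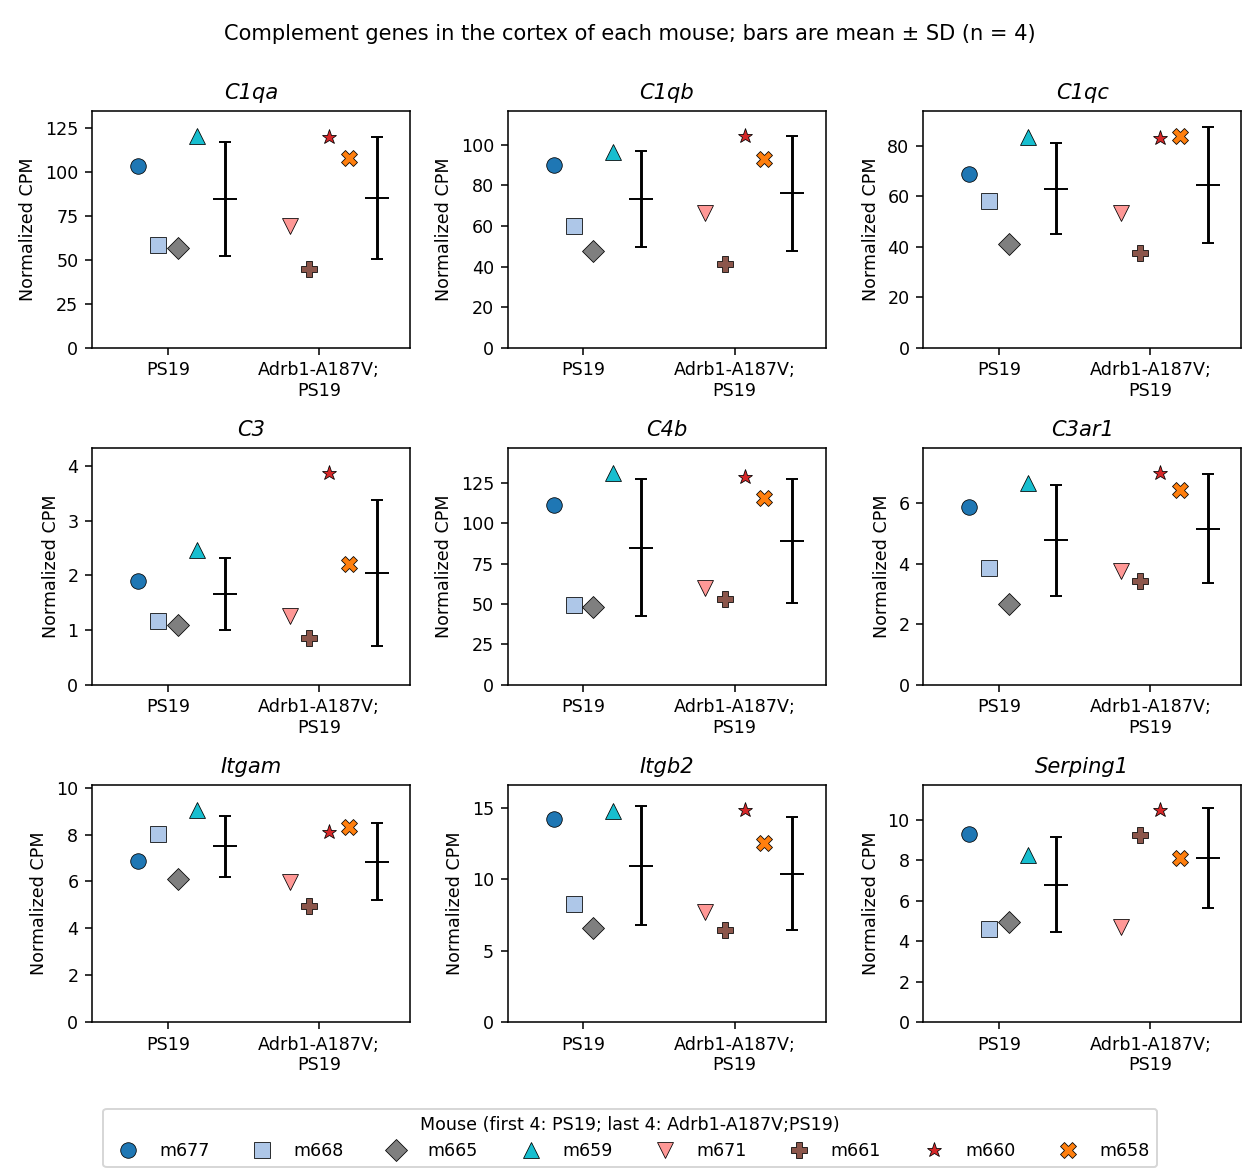
Normalized CPM (y axis) of the 9 complement genes in each mouse, with PS19 mice on the left and Adrb1-A187V;PS19 mice on the right of each panel; each symbol is 1 mouse and the bars are the mean ± SD of 4 mice. The genotypes overlap in every panel, and m677, m659, m660 and m658 are the 4 highest mice in 7 of the 9 panels.

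The C1q chains were the most abundant of these genes relative to their length, with genotype means within a few percent of each other. Their genes lie next to each other on the minus strand of chromosome 4 (build GRCm38), at 136895917 to 136898803 for C1qa, 136889804 to 136893065 for C1qc and 136880129 to 136886187 for C1qb. C1qa, the A chain, stood at 103.9, 58.3, 56.6 and 120.6 CPM in the PS19 mice m677, m668, m665 and m659, and at 69.3, 44.7, 119.9 and 108.3 CPM in the Adrb1-A187V;PS19 mice m671, m661, m660 and m658. Each genotype thus held a pair of high and a pair of low mice, and the genotypes overlapped over nearly their whole range. The means were 84.8 ± 32.4 CPM (SD, n = 4) in PS19 mice and 85.5 ± 34.8 CPM in Adrb1-A187V;PS19 mice. The log2 fold change was 0.01 (SE 0.28, 95% interval -0.60 to 0.62, exact permutation p = 0.971, edgeR adjusted p = 0.9996), so that changes to 0.659-fold or 1.54-fold are within its interval. The SE of C1qa was larger with DESeq2, at 0.41, so larger changes are not excluded by this interval.

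C1qb, the B chain, was at 89.8, 59.8, 47.4 and 96.4 CPM in the PS19 mice and at 66.4, 41.1, 104.3 and 93.0 CPM in the Adrb1-A187V;PS19 mice, in the same order of mice. C1qc, the C chain, was at 69.0, 58.2, 41.1 and 83.7 CPM and at 53.3, 37.5, 83.2 and 83.8 CPM. The same mice were high and low for all 3 chains, with m661 the lowest of all 8 mice for each of them. The genotype differences were 0.05 on the log2 scale for C1qb (SE 0.25, interval -0.49 to 0.60, exact permutation p = 0.943) and 0.03 for C1qc (SE 0.24, interval -0.47 to 0.54, permutation p = 0.971), with an edgeR adjusted p of 0.9996 for both. The proportions of the chains within a mouse varied less than their levels: the level of C1qa per kilobase was 1.02 to 1.31 times that of C1qb over the 8 mice, and that of C1qc 0.433 to 0.548 times. The level of C1qa was 1.86 to 2.79 times that of C1qc, the widest spread of the 3 ratios. No difference between genotypes was detected for these ratios (2-sided exact permutation test, p = 0.686, 0.800 and 0.971, adjusted p = 0.971 for each over 5 ratios).

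Because the C1q genes and several others moved together, the DNA before their starts was searched. RefSeq promoter windows of GRCm38.p6 were at hand for C1qb, C1qc, C3, C3ar1 and Itgam, 5 of the 9 genes, and the 250 bases before the start were read on both strands for 5 short motifs. The ETS core GGAAGT, which lies within the longer PU.1 core GAGGAAGT, was found before C1qb and C1qc, and 19.7% of the 32851 mouse promoters in the table hold it. The PU.1 core itself, named for a transcription factor of microglia and other myeloid cells, was found before C1qc, at 195 to 188 bases before the RefSeq start, and is held by 2.44% of promoters. The C1qc window, chr4:136892915-136893164, overlaps C1qc as deposited, which ends at 136893065 on the minus strand, so the distances hold only for the RefSeq start. The C3ar1 window also overlaps an exon of its own gene. The GAS letters TTCNNNGAA (7.02% of promoters), the interferon response letters GAAANNGAA (7.13%) and the NF-kB letters GGANTTTCC (1.07%) were found before none of the 5 genes, which says only that these letters are not in these windows. The window of C1qb is shown for the gene that, with C1qa, formed the most closely matched pair, and its capitals mark the ETS core on the opposite strand, 53 to 48 bases before the start. It covers chr4:136886201-136886450 and is written 5′ to 3′ on the gene's minus strand.
C1qb: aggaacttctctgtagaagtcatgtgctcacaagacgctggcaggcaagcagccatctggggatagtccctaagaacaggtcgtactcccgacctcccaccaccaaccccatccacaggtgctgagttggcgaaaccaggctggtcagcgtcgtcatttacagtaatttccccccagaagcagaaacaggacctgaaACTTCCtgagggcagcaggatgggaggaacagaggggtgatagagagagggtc

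C3, the source of the fragments that coat a target, and C4b, which acts one step before it, also had no detected genotype difference. C4b was at 111.4, 49.3, 48.3 and 130.9 CPM in the PS19 mice and at 59.9, 53.1, 128.8 and 115.3 CPM in the Adrb1-A187V;PS19 mice. Its values fell into 4 low mice and 4 high mice, with 2 of each genotype on either side. The log2 fold change of C4b was 0.07 (SE 0.33, 95% interval -0.64 to 0.78, exact permutation p = 0.629, edgeR adjusted p = 0.9996), between means of 84.96 ± 42.5 and 89.3 ± 38.3 CPM. C4b shares 7.48% of its 150-base stretches with the neighbouring copy C4a, so a small part of its reads could have been assigned to either gene.

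C3 was scarce in every mouse, with 17 to 69 reads per library. It stood at 1.90, 1.17, 1.09 and 2.47 CPM in the PS19 mice and at 1.26, 0.862, 3.86 and 2.21 CPM in the Adrb1-A187V;PS19 mice. The mouse m660 was the highest and m661 the lowest, both of the Adrb1-A187V;PS19 genotype, and every PS19 value lay between them. The log2 fold change was 0.30 (SE 0.43, 95% interval -0.61 to 1.22, exact permutation p = 0.771, edgeR adjusted p = 0.9996), with the largest edgeR SE of the 9. It was 0.15 with limma-voom and -0.20 without m660. Counting error alone is 24.3% of the level in the library with the fewest C3 reads. The ratio of C4b to C3 per kilobase was 30.1 to 55.6 over the mice, with no detected difference between genotypes (exact permutation test, p = 0.857). The window before C3 held none of the 5 motifs and is shown for a gene whose order of mice was that of C1qb (chr17:57228137-57228386, GRCm38.p6, minus strand).
C3: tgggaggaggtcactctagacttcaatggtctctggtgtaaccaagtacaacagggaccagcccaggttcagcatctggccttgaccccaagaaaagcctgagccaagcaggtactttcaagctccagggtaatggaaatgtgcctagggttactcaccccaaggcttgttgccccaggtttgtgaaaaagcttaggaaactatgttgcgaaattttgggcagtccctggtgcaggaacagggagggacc

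The receptors gave the same picture, with Itgam the steadiest of the 9 genes. C3ar1, the receptor for the small C3 fragment, was at 5.88, 3.87, 2.69 and 6.69 CPM in the PS19 mice and at 3.78, 3.45, 6.997 and 6.45 CPM in the Adrb1-A187V;PS19 mice. Itgb2, the beta chain of complement receptor 3 and of other leukocyte integrins, was at 14.2, 8.28, 6.56 and 14.8 CPM and at 7.74, 6.42, 14.8 and 12.6 CPM. For both receptors m677, m659, m660 and m658 were the 4 high mice, and the genotypes overlapped. The log2 fold changes were 0.12 for C3ar1 (SE 0.29, interval -0.51 to 0.75, exact permutation p = 0.714) and -0.08 for Itgb2 (SE 0.28, interval -0.69 to 0.53, permutation p = 0.743), with an edgeR adjusted p of 0.9996 for both.

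Itgam, the alpha chain of complement receptor 3, was at 6.86, 8.01, 6.09 and 9.03 CPM in the PS19 mice and at 6.00, 4.93, 8.12 and 8.32 CPM in the Adrb1-A187V;PS19 mice. Its range over the 8 mice was 1.83-fold, against 2.31-fold for its partner Itgb2, and m668 rather than m677 was among its 4 highest mice. The log2 fold change was -0.13 (SE 0.19, 95% interval -0.53 to 0.27, exact permutation p = 0.486, edgeR adjusted p = 0.9996). Because the receptor pairs both chains, their ratio was taken within each mouse, and Itgb2 per kilobase was 1.70 to 3.41 times Itgam, with no detected genotype difference (exact permutation test, p = 0.800). The Itgam values carry a doubt of their own. In the annotation the gene model Gm49368 lies over Itgam on the same strand and shares 62.7% of its 150-base stretches, and its row was at 0 counts in every mouse. Whether reads of the shared exons are missing from the Itgam row was not tested, and its level is uncertain. The window before Itgam, whose pairs had the lowest r, also held none of the 5 motifs (chr7:128062390-128062639, GRCm38.p6, plus strand).
Itgam: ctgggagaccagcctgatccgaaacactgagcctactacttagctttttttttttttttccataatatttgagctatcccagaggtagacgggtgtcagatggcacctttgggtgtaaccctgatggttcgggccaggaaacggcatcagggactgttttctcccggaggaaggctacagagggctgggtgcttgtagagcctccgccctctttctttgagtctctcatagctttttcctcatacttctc

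Serping1, the inhibitor of the classical pathway proteases, departed most from the common order of mice. It was at 9.31, 4.62, 4.96 and 8.25 CPM in the PS19 mice and at 4.68, 9.24, 10.5 and 8.09 CPM in the Adrb1-A187V;PS19 mice. The mouse m661, lowest or next to lowest for most of the other genes, was among the high ones for Serping1, which left 5 high mice and 3 low ones. The means were 6.79 ± 2.35 and 8.12 ± 2.49 CPM, with a log2 fold change of 0.27 (SE 0.26, 95% interval -0.29 to 0.82, exact permutation p = 0.514, edgeR adjusted p = 0.9996).

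**Figure D2:**
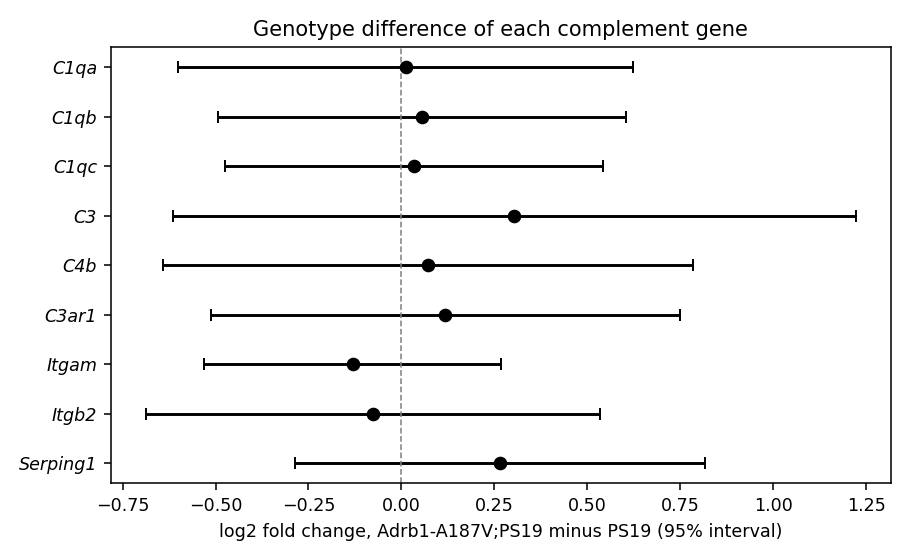
The log2 fold change of each gene, Adrb1-A187V;PS19 minus PS19 (x axis), as a point with its 95% interval from edgeR; the dashed line marks 0. Every interval includes 0, and the widest, from -0.61 to 1.22, is that of C3. With DESeq2 the SE was larger for the C1q chains, C4b and Itgb2.

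Levels were compared between genes per kilobase of the length given in the counts table. C1qa led with 81.9 ± 29.9 CPM per kilobase (SD, n = 8), followed by C1qb with 68.7 ± 22.2, C1qc with 33.0 ± 9.88 and C4b with 15.3 ± 6.59. Next came Itgb2 with 3.499 ± 1.24, Serping1 with 3.21 ± 1.01, Itgam with 1.43 ± 0.282, C3ar1 with 1.16 ± 0.395 and C3 with 0.360 ± 0.193. Message for the recognition molecule and for C4 was thus far more plentiful than that for C3 or its receptors. Most neighbours in this order kept it in 8 of 8 mice (2-sided exact paired permutation test, p = 0.0078, adjusted p = 0.010). The order was read from these same mice and rests on the given gene lengths, so the tests describe only how steadily the mice kept it. Itgam was above C3ar1 in 6 of 8 mice (p = 0.031 by the same permutation test, adjusted p = 0.036), and Itgb2 and Serping1 did not differ beyond their spread, with Itgb2 higher in 7 of 8 mice (exact permutation test, p = 0.539). The place of Itgam in this order carries the doubt over the stretches it shares with Gm49368.

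**Figure D3:**
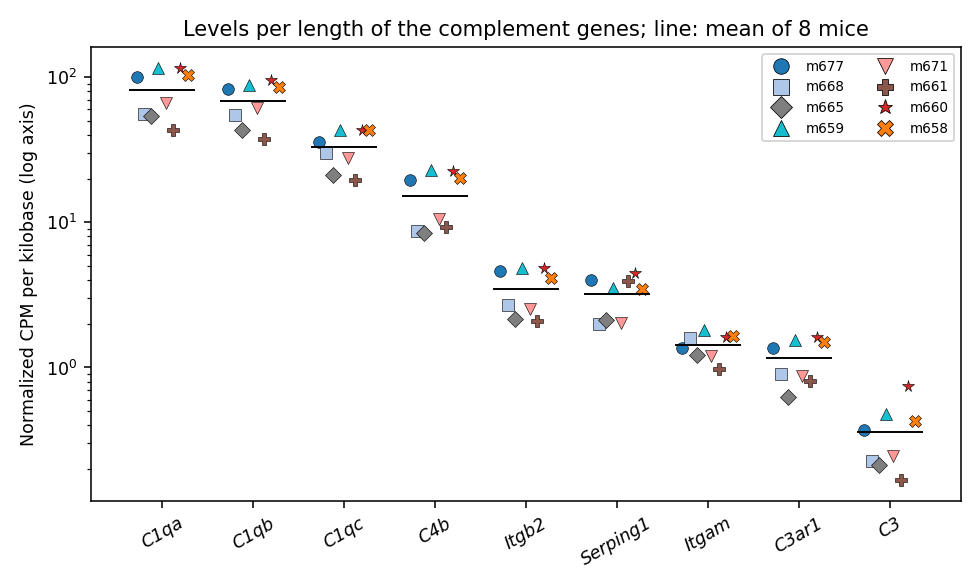
Normalized CPM per kilobase of gene length (y axis, log scale) of the 9 genes, ordered by their mean; each symbol is 1 mouse and the line is the mean of 8 mice. The C1q chains and C4b lie above 8 CPM per kilobase in every mouse, and C3 lies below 1 in every mouse.

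The spread between mice of the same genotype was large for most of these genes. The within-genotype SD of log2 CPM was 0.73 for C3, 0.71 for C4b, 0.61 for C1qa, 0.57 for Itgb2, 0.55 for C1qb and C3ar1, 0.50 for C1qc and Serping1 and 0.31 for Itgam. The median over all genes tested was 0.15, and over genes with a mean of at least 10 CPM, where counting error matters less, it was 0.10. Among those better measured genes, 0.211% had a larger SD than C4b and 0.364% a larger SD than C1qa. Over all genes tested, 23.6% had a larger SD than Itgam. For each of the rest this share was between 1.96% (C3) and 8.60% (C1qc). Counting error at the lowest library was 3.44% for C1qa and 3.74% for C4b, against a range between mice of 2.70-fold and 2.71-fold. For C3 it was 24.3%, so the SD of C3 also holds counting error.

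The genes moved together over the mice. In 7 of the 9, the 4 highest mice were m677 and m659 of the PS19 genotype and m660 and m658 of the Adrb1-A187V;PS19 genotype; Itgam had m668 in place of m677 and Serping1 had m661 in place of m658. This set of mice was read from C4b, and the count is a description: 3.84% of the 17195 genes tested had the same mice as their 4 highest, and 2.68% had them as their 4 lowest. The 8 values of C4b and of Serping1 fell into separate clusters, so no correlation is given for them. For the 21 pairs of the other 7 genes, Pearson's r over the 8 mice was 0.744 to 0.983 with a median of 0.933, and Spearman's rho was at least 0.810 with a median of 0.929. All 21 had an adjusted p under 0.05 by either measure (exact permutation test over the 40320 pairings, adjusted p for r of 0.0010 to 0.039). With the genotype means subtracted the median r was 0.941 and the lowest 0.789.

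The closest pair was C1qa and C1qb (r = 0.983, rho = 0.976, adjusted p = 0.0010 and 0.0028 by exact permutation), and it kept an r of 0.993 without the 2 mice farthest from the median. C3ar1 and Itgb2 followed each other nearly as closely (r = 0.967, and 0.972 without 2 mice). The pairs with Itgam were the loosest, with r of 0.781 to C1qa and 0.807 to C1qb falling to 0.477 and 0.471 without 2 mice, so that these 2 relations rest largely on those mice. Its other pairs changed less: r was 0.758 and then 0.704 to C3, 0.744 and 0.744 to C3ar1, 0.896 and 0.763 to C1qc, and 0.779 and 0.617 to Itgb2. Only in the pair with Itgb2 were the 2 mice chosen by Itgam itself, so the changes in r are not strictly alike.

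Markers of microglia, of disease-associated microglia and of astrocytes moved with the complement genes. For each list the score of a mouse was the mean over the tested genes of log2 CPM minus its mean over the mice, and no list held any of the 9 genes. Against the 13 microglia genes, such as Tmem119, P2ry12, Aif1 and Tyrobp, r was 0.785 to 0.989 with a median of 0.950 over the 7 genes, and 6 of 7 had an adjusted p under 0.05 over 77 relations (exact permutation test). Against 11 genes of disease-associated microglia, such as Cst7, Clec7a and Trem2, r was 0.802 to 0.992 with a median of 0.962, again with 6 of 7. The type I interferon response list gave 0.754 to 0.963 with 6 of 7, and the astrocyte list 0.535 to 0.921 with 5 of 7. Itgam had the lowest r to each of these 4 lists and passed for none of them by r. The share of all genes tested that relate as closely to these lists is not given here, so these counts are a description. Spearman's rho was 0.857 to 0.976 for microglia (7 of 7 passed), 0.690 to 0.929 for disease-associated microglia (6 of 7), 0.643 to 0.905 for interferon genes (4 of 7) and 0.548 to 0.881 for astrocytes (5 of 7). Without the 2 mice farthest from the median of the list score, r was 0.419 to 0.987, 0.465 to 0.984, 0.433 to 0.925 and 0.780 to 0.971. Itgam was the lowest in each, so that its relation to the microglia and interferon lists rests largely on those mice.

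No genotype difference was detected for these lists. The summed level of the 13 microglia genes was 405.1 to 610.9 CPM in PS19 mice and 391.2 to 603.8 CPM in Adrb1-A187V;PS19 mice, and that of the disease-associated microglia genes 354.3 to 559.4 and 328.7 to 580.3 CPM. The reactive astrocyte genes, whose scores fell into separate clusters and so have no r, summed to 307.5 to 968.7 and 265.3 to 987.5 CPM, and their 4 highest mice were those of the complement genes. No gene of these 3 lists, of the astrocyte list or of the interferon list had an unadjusted p under 0.05 between genotypes (edgeR). The score of the microglia list spanned 0.62 on the log2 scale over the mice, against 1.51 for disease-associated microglia and a range of 1.43 for C1qa. With the microglia score subtracted from each mouse, the range of C1qa was 0.85, that of C1qb 0.77, that of C1qc 0.57, that of C4b 1.03 and that of C3 1.46. Serping1 was the exception, with a range of 1.16 before and 1.31 after the subtraction. How much of the spread in the complement genes comes with the number of microglia or astrocytes was not tested.

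Of the other lists, that of border-associated macrophages passed for some of the complement genes by rank, and none of the rest passed for any. The border-associated macrophage list gave r of 0.551 to 0.736 and rho of 0.810 to 0.929, and 0 of 7 passed by r but 5 of 7 by rho, with r of 0.761 to 0.933 without the 2 farthest mice. The leptomeningeal fibroblast list gave r of 0.426 to 0.821 and rho of 0.571 to 0.810, with 0 of 7 by either. For erythrocytes (r of -0.20 to 0.18), choroid plexus (0.14 to 0.62), oligodendrocytes (-0.60 to -0.16), cortical excitatory neurons (-0.44 to -0.26) and striatum (-0.24 to 0.16), 0 of 7 passed by r or by rho. The endothelial and pericyte list and the neuron list fell into clusters and have no r. The mice with the most choroid plexus RNA, m658 and m668, were a high and a low mouse for the C1q chains. Between genotypes 3 of the 8 cortical excitatory neuron genes were lower in Adrb1-A187V;PS19 mice at an unadjusted p under 0.05 (2.80% of all genes tested) and 0 after adjustment (edgeR), and no gene of the other lists passed at the unadjusted threshold.

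**Figure D4:**
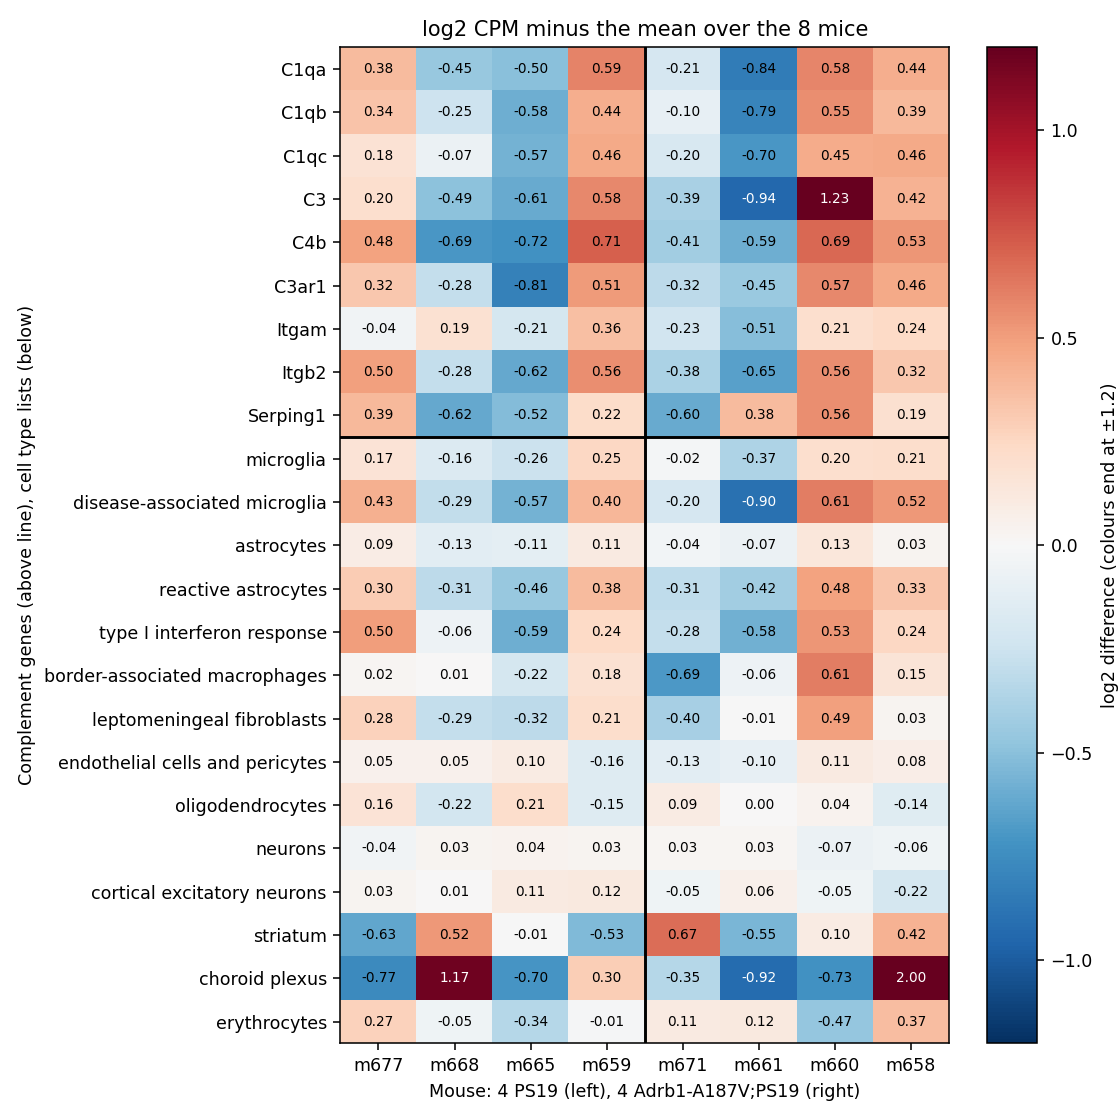
log2 CPM minus its mean over the 8 mice for the 9 complement genes (upper rows) and the same difference averaged over each cell type list (lower rows), by mouse (columns, 4 PS19 left of the line and 4 Adrb1-A187V;PS19 right); red is above and blue below the mean. The columns m677, m659, m660 and m658 are red for most complement genes and for both microglia lists and reactive astrocytes, while choroid plexus peaks in m668 and m658.

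The genes whose pattern was most like that of the 9 complement genes were B2m, Ctsc, Osmr, Tmem176a, Gbp3, H2-D1, Arpc1b, Sh3pxd2b, Gfap and Hexa, by the mean of the 9 Pearson r over 8 mice among 15732 genes of at least 1 CPM. The mean r was 0.909 for B2m and 0.896 for Hexa, with no test since the genes were picked for it; this mean, used only to choose genes, includes the r to C4b and Serping1, whose values fell into clusters. B2m and H2-D1 encode the chains of class I histocompatibility molecules, Ctsc and Hexa encode lysosomal enzymes, and Gfap encodes the filament protein of astrocytes. Gfap had the widest range of them, at 748.4, 256.6, 219.6 and 826.7 CPM in the PS19 mice and 353.6, 181.7, 837.9 and 752.0 CPM in the Adrb1-A187V;PS19 mice, a 4.61-fold span with the same 4 mice on top. None of the 10 had a genotype difference past 0.20 on the log2 scale.

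Beyond the 9 genes, 52 other complement genes were listed, and 34 of them had enough reads to be tested. Between genotypes 0 were higher and 2 were lower at an unadjusted p under 0.05, where 2.80% of all genes tested passed, and 0 passed adjustment (edgeR), and the median difference on the log2 scale was 0.008, with a positive sign in 18 of 34. The 2 lower genes were Cfp, which encodes properdin, the stabilizer of the alternative pathway convertase (-0.32, SE 0.14, exact permutation p = 0.086, edgeR adjusted p = 0.9996), and Csmd1, a regulator with complement control domains made in neurons (-0.16, SE 0.07, exact permutation p = 0.143, edgeR adjusted p = 0.9996). Cfp was at 9.38 ± 1.47 CPM in PS19 mice and 7.46 ± 0.967 CPM in Adrb1-A187V;PS19 mice, and Csmd1 at 100.1 ± 2.75 and 89.5 ± 9.74 CPM, with overlap for both. Neither held its unadjusted call with each mouse left out: Cfp lost it without m677 (-0.22), m659 (-0.32), m671 (-0.24) or m660 (-0.33), and Csmd1 without m668, m665, m659, m671, m660 or m658 (-0.16 to -0.12). Of the 7 tested genes of the other classical and lectin proteases and recognition proteins, of the 3 of the alternative pathway and terminal components, of the 8 receptors and of the 16 regulators, no others passed.

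Per kilobase the most abundant of the other complement genes were Clu at 246.6 CPM, Calr at 103.2, Sez6l2 at 77.8, Sez6 at 39.4, Sez6l at 38.2 and Lrp1 at 36.7. Clu encodes clusterin, an inhibitor of the terminal complex, and stood above C1qa per length. Clu, C4a and Itgax had the same 4 highest mice as C4b. Of the terminal components C8g, at 1.53 CPM per kilobase (31 to 48 counts per library), and C7, at 0.446 (7 to 35 counts), could be tested. C6 and C9 were at 0 counts in every mouse, as were Mbl1, Fcnb and Cfd, and no untested gene exceeded 19 counts in any library.

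**Figure D5:**
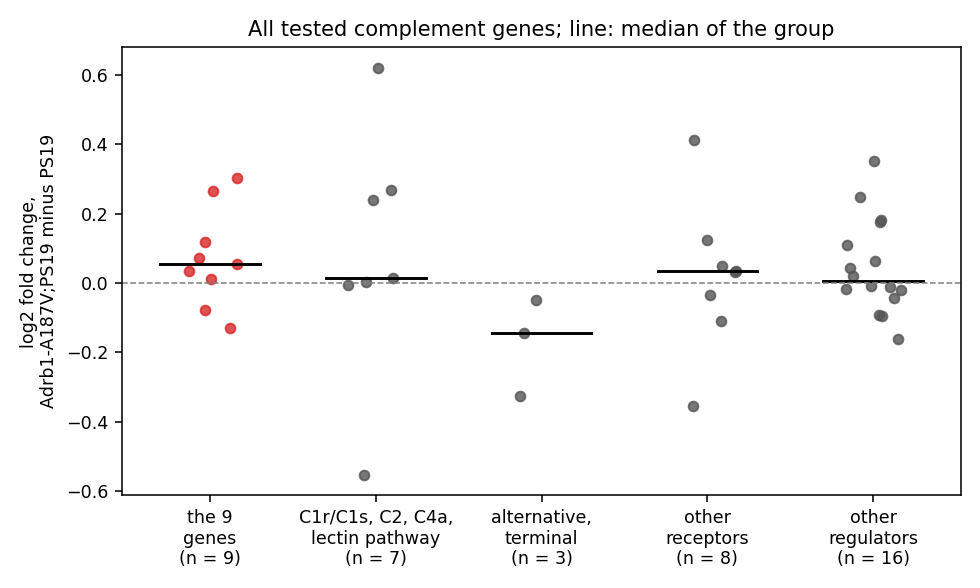
The log2 fold change, Adrb1-A187V;PS19 minus PS19 (y axis), of the 9 complement genes in red and of the 34 other tested complement genes in grey by group; each point is 1 gene and the line is the median of its group. The points lie between -0.55 and 0.62 around 0.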

How the data were processed

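Paired-end libraries from cortex total RNA were used. Per the submitters' processing notes the tools were HISAT2 2.0.5, featureCounts 1.5.0-p3 and DESeq2 1.20.0 on mm10 (GRCm38); the annotation release and the strand and multiple-mapping settings are not given in the sources used here. The authors deposited raw read counts per gene, with gene length and coordinates, for each of the 8 mice, and these counts were used as deposited.

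Genes were kept by filterByExpr, scaled by TMM and compared by the 2-sided quasi-likelihood test of edgeR 4.0.16 (glmQLFit, glmQLFTest), with Benjamini-Hochberg adjustment over 17195 genes. The SE is the log2 fold change divided by the root of F. CPM use the TMM factors (0.990 to 1.01), and log2 CPM for correlations use a prior count of 2. Where the largest gap between the 8 values exceeded 0.5 of their range with at least 2 mice on each side, no correlation of that gene or list is reported. Exact permutation tests of 4 mice against 4 cannot go below p = 0.0286. The test on simulated counts called 94.4% of 2-fold changes at an unadjusted p under 0.05, and 4.46% of unchanged genes. Its changed genes were drawn at random from all genes tested, whose median within-genotype SD of log2 CPM was 0.15. The 9 complement genes had an SD of 0.31 to 0.73, so 94.4% is not the rate at which a 2-fold change in them would be called. Replicates differed by more than counting noise, with a chi-square per degree of freedom of 4.82 to 10.1 over 12 pairs.

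The 9 genes, the cell type lists and the other complement genes were chosen with earlier results of these data known. Named genes were the 9, the other complement genes with an unadjusted p under 0.05 or among the 6 highest per kilobase, and the 10 most alike; further genes were chosen after their values were seen. Alternatives were DESeq2 1.42.0, limma-voom (limma 3.58.1), other scaling and filters, a microglia covariate and leaving out each mouse. RefSeq promoters came from a table of build GRCm38.p6. RefSeq proteins were not used here.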

Additional observations from a re-analysis of the deposited data

Results flagged for a closer look

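Among 62 groups of 4 mice, 3 had 1 mouse far from the other 3, where about 1 in 20 groups is marked by chance. The gap of that mouse to its nearest neighbour, as a share of the whole range, was 0.850 for the score of the neuron list in PS19 mice, where m677 stood at -0.04 and the others at 0.03 to 0.04. It was 0.866 for Csmd1 in PS19 mice, where m677 stood at 95.96 CPM and the others at 101.0 to 101.7 CPM. It was 0.843 for Sez6, a neuronal regulator, in PS19 mice, where m668 stood at 260.2 CPM and the others at 199.2 to 208.7 CPM. None of the 9 complement genes had such a mouse in either genotype.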

How the results depend on the processing

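No setting called any of the 9 complement genes. The SE depended on the fit: with DESeq2 it was 0.41 for C1qa, 0.37 for C1qb, 0.34 for C1qc, 0.48 for C4b and 0.40 for Itgb2. With edgeR these were 0.28, 0.25, 0.24, 0.33 and 0.28, so the edgeR intervals of these genes are narrower. For C3, C3ar1, Itgam and Serping1 the 2 fits gave a similar SE. Without a filter on low counts 1366 genes had an unadjusted p under 0.05 and 66 an adjusted one. In that setting the SE was only 0.070 for C1qa and 0.071 for C4b, whose within-genotype SD of log2 CPM was 0.61 and 0.71. Its errors are thus too small for these genes, and its larger counts of calls should be read with caution. The sign of C1qa turned with limma-voom (-0.015) and with the microglia score as a covariate (-0.018), and that of C1qc with the covariate (-0.0019). These were 3 of 54 values of the 9 genes under settings that kept all mice.

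With single mice left out, 431 to 674 genes had an unadjusted p under 0.05, the number of the 9 genes called or not overlapping was 0 to 0, and the median correlation was 0.922 to 0.945. The log2 fold changes ran from -0.20 to 0.23 for C1qa, -0.14 to 0.26 for C1qb, -0.13 to 0.23 for C1qc, -0.20 to 0.57 for C3, -0.16 to 0.36 for C4b, -0.092 to 0.33 for C3ar1, -0.24 to 0.0029 for Itgam, -0.30 to 0.11 for Itgb2, 0.12 to 0.46 for Serping1, -0.41 to -0.22 for Cfp and -0.24 to -0.12 for Csmd1. The sign turned in 25 of 72 such values, in 8 of the 9 genes and not in Serping1. Leaving out m660 turned 6 genes, m665 and m658 5 each, m668 4, m661 2, and m677, m659 and m671 1 each. Cfp lost its unadjusted call with limma-voom (-0.30). No paired analysis was possible because each mouse has a number of its own and no label gives its litter.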
